A study of Mus musculus with 4 samples.

Results

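Neutrophil recruitment was followed through 5 genes of an inflammatory PCR array, namely the chemokines *Cxcl1*, *Cxcl5* and *Cxcl15*, the chemokine receptor *Cxcr2* and the growth factor *Csf3*. They were taken by gene symbol from the 84 target genes of the panel, and all 5 gave a reading on all 4 arrays. Total RNA came from ischemic adductor and gastrocnemius muscle of FVB mice, which by the study's methods were FVB/NJ, 10 to 12 weeks old and of both sexes. Mice of one group had received E-selectin/AAV2/2, an adeno-associated virus of serotype 2/2 carrying the murine E-selectin gene, by intramuscular injection. The controls had received LacZ/AAV2/2, the same vector with a bacterial reporter gene. The arrays are called E-selectin and LacZ arrays after these vectors. Both groups then underwent interruption of the femoral vessels and received intraperitoneal L-NAME at 40 mg/kg, which blocks nitric oxide synthesis, and muscle was collected at 21 days. By the series text, RNA of 3 mice per group was pooled in equal amounts and each pool was run on 2 arrays. The sample labels number the arrays of a group without saying what the numbers stand for. By the series text, every SD, SE and p-value below describes the assay and compares 1 pool with another, with no estimate of how animals varied.

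CXCR2 is the receptor through which neutrophils follow the ELR CXC chemokines, a family named after a glutamate-leucine-arginine motif in front of its first cysteines. CXCL1 and CXCL5 are ligands of this receptor, released by stromal, endothelial and epithelial cells on injury, and CXCL15 is a mouse neutrophil chemoattractant known mainly from lung epithelium. CSF3, or granulocyte colony-stimulating factor, drives the production of neutrophils in the bone marrow and their release into blood. E-selectin itself slows neutrophils on activated endothelium before they leave the vessel. The comparison asked whether E-selectin gene transfer left a different level of these recruitment genes in the muscle 3 weeks after the injury.

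None of the 5 genes differed between the pools by more than the test allowed. *Cxcr2* read higher on both E-selectin arrays than on both LacZ arrays, at 3.72-fold with a 95% interval of 0.794 to 17.5. The 3 chemokines all had a log2 change below zero, from -0.60 for *Cxcl1* to -1.48 for *Cxcl15*. Of the 77 target genes tested, 41 were below zero. *Csf3* differed by 1.51-fold upward. With limma and Benjamini-Hochberg adjustment at 0.05, 0 of the 5 genes passed, against 5.19% of the 77 target genes tested. Without adjustment it was again 0 of 5 at a p-value under 0.05, against 13% of the 77.

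Levels are given as ΔCt, obtained by subtracting from the threshold cycle (Ct) the average of the 5 reference genes of that array (*Hsp90ab1*, *Gusb*, *Gapdh*, *B2m* and *Actb*). The Ct is the PCR cycle at which the fluorescence of a well crosses a set level, so that a higher ΔCt means less transcript and 1 cycle is a 2-fold difference at full PCR efficiency. Log2 changes are differences in mean ΔCt with the sign turned, so that a positive value is a higher level with E-selectin.

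*Cxcr2*, the neutrophil receptor, had a ΔCt of 7.98 and 8.74 on E-selectin replicates 1 and 2, and of 11.31 and 9.21 on LacZ replicates 1 and 2. Both E-selectin arrays thus lay above both LacZ arrays in level, the nearest pair being E-selectin replicate 2 and LacZ replicate 2. The mean ΔCt was 8.36 ± 0.535 (SD, n = 2 arrays) with E-selectin and 10.3 ± 1.49 (SD, n = 2) with LacZ. The log2 change was 1.90 (SE 1.04, 95% interval -0.33 to 4.13, adjusted p = 0.396 by limma), the 11th highest of the 77. Most of its size came from LacZ replicate 1, without which it was 0.84, and it was 2.95 without LacZ replicate 2. Across the 15 other settings that could change it the log2 change of *Cxcr2* stayed above zero, from 0.46 with *B2m* as the only reference gene to 3.01 with *Gapdh* as the only reference gene. Its adjusted p-value ran from 0.138 to 0.816 over all settings with a test. Of these reference genes, *B2m* crossed its threshold earlier and *Gapdh* later on both E-selectin arrays than on both LacZ arrays.

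**Figure D1:**
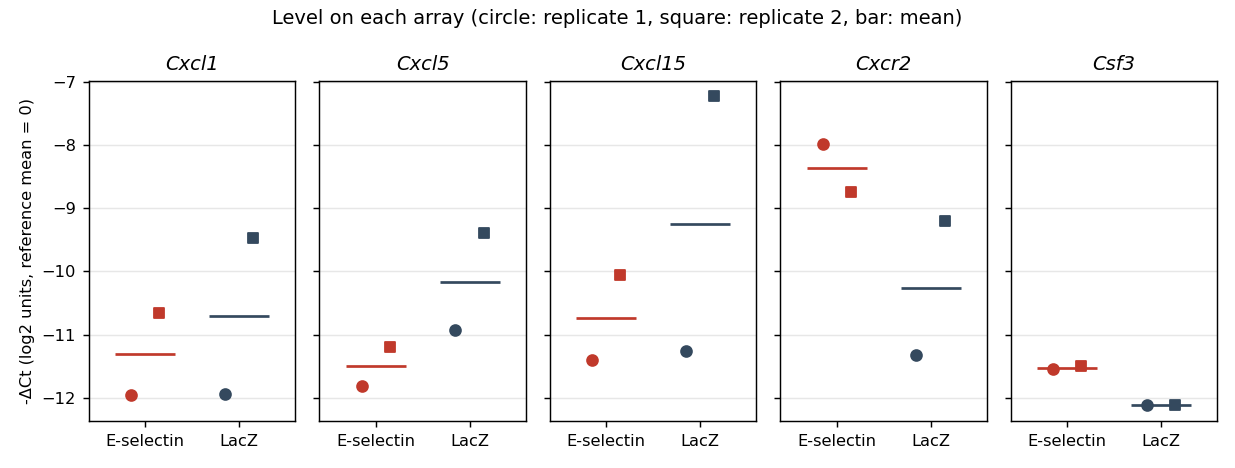
Level of each gene on each array, as -ΔCt in log2 units with the mean of the 5 reference genes at 0, for E-selectin (red) and LacZ (dark blue), where circles are replicate 1, squares are replicate 2 and bars are group means. *Cxcr2* and *Csf3* lie higher on both E-selectin arrays, *Cxcl5* lies lower on both, and *Cxcl1* and *Cxcl15* overlap, with LacZ replicate 2 the highest array for all 3 chemokines.

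*Cxcl1*, the mouse chemokine also known as KC, had a ΔCt of 11.95 and 10.65 on the E-selectin arrays and of 11.94 and 9.47 on the LacZ arrays, in replicate order. The groups overlapped, since LacZ replicate 1 lay below E-selectin replicate 2 in level and LacZ replicate 2 above it. The log2 change was -0.60 (SE 1.09, 95% interval -2.93 to 1.74, adjusted p = 0.798 by limma). Without LacZ replicate 2 it was 0.64, and without E-selectin replicate 1 it was 0.05, so that the direction rested on single arrays.

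*Cxcl5*, also known as LIX, had a ΔCt of 11.80 and 11.19 with E-selectin and of 10.93 and 9.39 with LacZ. Both E-selectin arrays lay below both LacZ arrays in level. The log2 change was -1.34 (SE 0.99, 95% interval -3.48 to 0.80, adjusted p = 0.507 by limma), a ratio of 0.396. It remained below zero in the 15 other settings that could change it, from -2.78 with *B2m* as the only reference gene to -0.23 with *Gapdh* as the only reference gene.

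*Cxcl15*, also known as lungkine, had a ΔCt of 11.40 and 10.05 with E-selectin and of 11.26 and 7.24 with LacZ. A single array, LacZ replicate 2, stood apart from the other three, and the groups overlapped. The log2 change was -1.48 (SE 1.25, 95% interval -4.17 to 1.21, adjusted p = 0.507 by limma). It turned to 0.54 without LacZ replicate 2 and was -3.49 without LacZ replicate 1 (adjusted p = 0.0696 by limma, the lowest over the settings tried, the highest being 0.960).

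*Csf3*, the granulocyte growth factor, had a ΔCt of 11.54 and 11.49 with E-selectin and of 12.11 and 12.12 with LacZ. The 2 pools did not overlap, and the repeat arrays of each pool lay closer together than for any other of the 5 genes. The log2 change was 0.60 (SE 0.94, 95% interval -1.43 to 2.62, adjusted p = 0.745 by limma). The SE is far wider than the gap between these repeat arrays, since limma takes each variance partly from the whole panel. Between LacZ replicates 1 and 2 the raw Ct of *Csf3* differed by 1.22 cycles, and so did the mean of the 5 reference genes. With *B2m* as the only reference gene its log2 change was -0.85. All 4 of its wells had a Ct past 35, so a limit at that cycle leaves no reading of this gene.

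Both arrays of a pool lay on one side of the other pool for 3 of the 5 genes, 2 higher and 1 lower with E-selectin. Over the 77 genes tested this held for 48.1%, with 22.1% higher and 26% lower, so the share among the 5 genes was near that of the panel. No permutation test was run, since the smallest two-sided exact p that 2 arrays per pool allow is 0.333. *Cxcr2* stayed higher without overlap in 9 of the 10 settings that changed the reference or the late wells, and overlapped with *B2m* as the only reference gene. *Cxcl5* stayed lower without overlap in 6 of these 10 settings and overlapped in 4. Among the 6 was the limit at 35, which 3 of its 4 wells then hold. Its separation from LacZ replicate 1 in that setting is the difference of the reference genes alone. *Csf3* was higher without overlap in 6 of the 10, lower in 1 and overlapped in 3, among them the limit at 35.

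**Figure D2:**
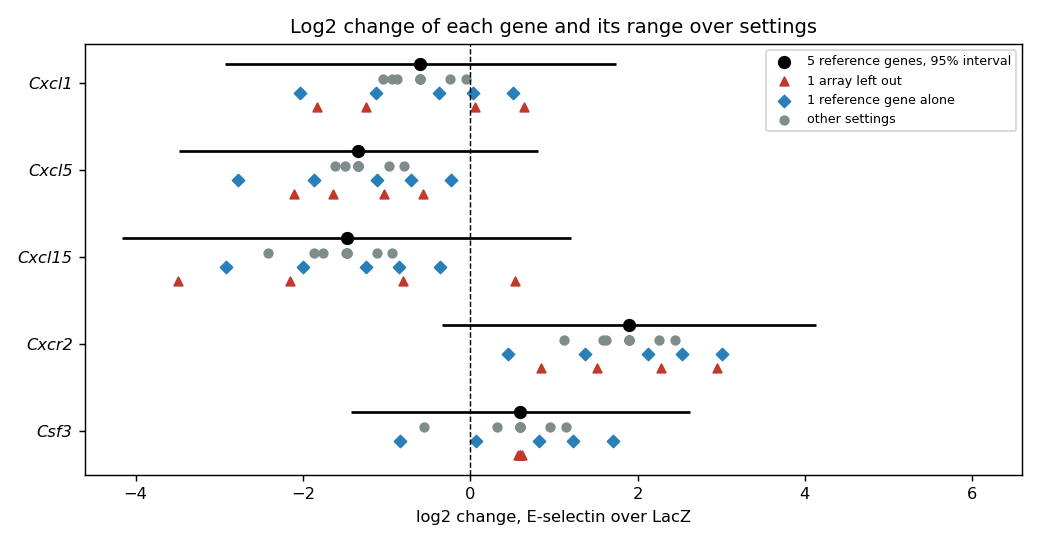
Log2 change of E-selectin over LacZ for each gene, with the 95% limma interval (black) and the values with 1 array left out (red triangles), with 1 reference gene alone (blue diamonds) and under the other settings (grey circles). All 5 intervals cross zero, and *Cxcr2* stays to the right and *Cxcl5* to the left of zero throughout. The grey circle of *Csf3* below zero is the setting with late wells at a Ct of 35, which holds no reading of this gene.

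The choice of reference gene cancels when 2 genes are compared within an array, and the receptor was set against the chemokines in this way after the values had been seen. *Cxcr2* crossed its threshold 3.97 and 1.91 cycles before *Cxcl1* on E-selectin replicates 1 and 2, but 0.63 and 0.26 cycles before it on LacZ replicates 1 and 2. Against *Cxcl5* the lead of *Cxcr2* was 3.82 and 2.45 cycles with E-selectin, and -0.38 and 0.18 cycles with LacZ. Against *Cxcl15* it was 3.42 and 1.31 cycles with E-selectin, and -0.05 and -1.97 cycles with LacZ. Each lead was longer on both E-selectin arrays than on both LacZ arrays. These leads all share the *Cxcr2* reading of each array. On LacZ replicate 1, *Cxcr2* and the chemokines all read within 0.68 cycles of the genomic DNA control well described below.

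Against the mean Ct of the 3 chemokines, *Cxcr2* led by 2.81 ± 1.31 cycles with E-selectin and by -0.22 ± 0.408 cycles with LacZ (SD, n = 2 each), a shift of 3.04 on the log2 scale. The size of a lead depends on how well each assay amplifies, so only its shift between the pools was read. Such a separation was common on this panel: the Ct difference did not overlap between the pools for 54.2% of the 2926 pairs of tested genes, and for 26.1% it also shifted by at least 2.50, the smallest shift among the 3 pairs with *Cxcr2*. The Ct difference of *Csf3* from *Cxcr2* overlapped between the pools, at 3.56 and 2.75 cycles with E-selectin and 0.80 and 2.91 cycles with LacZ. *Csf3* led *Cxcl5* by 0.26 and -0.30 cycles with E-selectin and by -1.18 and -2.73 cycles with LacZ, without overlap, and its differences from *Cxcl1* and *Cxcl15* overlapped.

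**Figure D3:**
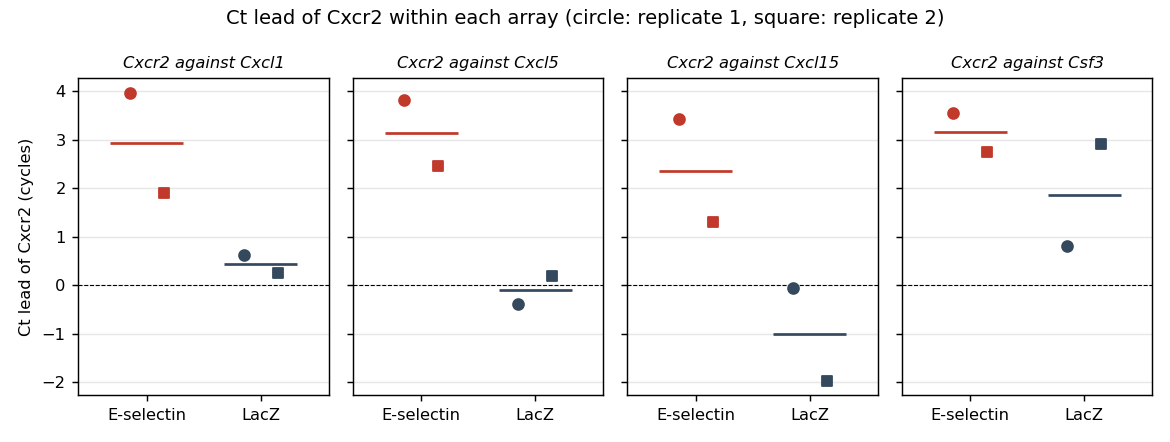
Cycles by which *Cxcr2* crossed its threshold before *Cxcl1*, *Cxcl5*, *Cxcl15* and *Csf3* on the same array, for E-selectin (red) and LacZ (dark blue), with circles for replicate 1, squares for replicate 2 and bars for group means. The lead over each of the 3 chemokines is longer on both E-selectin arrays, at 1.31 to 3.97 cycles against -1.97 to 0.63 cycles, while the lead over *Csf3* overlaps.

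The 3 chemokine genes are neighbours. In RefSeq, *Cxcl5*, *Cxcl15* and *Cxcl1* lie on chromosome 5 in this order with 3 further protein-coding genes among them, *Ppbp*, *Pf4* and *Cxcl3*, whereas *Cxcr2* is on chromosome 1 and *Csf3* on chromosome 11. *Pf4*, the platelet chemokine of that cluster, was also on the panel and had a log2 change of -0.20 (SE 0.94, adjusted p = 0.899 by limma). RefSeq promoter sequence was at hand for 3 of the 5 genes, and the 250 bases in front of each start are shown in build GRCm38.p6 to set 2 of the chemokines beside the receptor. The arrays of these 2 chemokines overlapped and none of the 3 genes passed the test. All 3 are on the plus strand. Capitals mark matches to the NF-κB consensus motif and to the TATA motif TATAAA, each searched on both strands.
*Cxcl1*, chr5:90890995-90891244: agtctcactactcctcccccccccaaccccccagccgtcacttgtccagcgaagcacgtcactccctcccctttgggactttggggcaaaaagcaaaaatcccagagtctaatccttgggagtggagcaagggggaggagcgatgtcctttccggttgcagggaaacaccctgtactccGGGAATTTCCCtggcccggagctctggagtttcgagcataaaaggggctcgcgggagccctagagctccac
*Cxcl15*, chr5:90794284-90794533: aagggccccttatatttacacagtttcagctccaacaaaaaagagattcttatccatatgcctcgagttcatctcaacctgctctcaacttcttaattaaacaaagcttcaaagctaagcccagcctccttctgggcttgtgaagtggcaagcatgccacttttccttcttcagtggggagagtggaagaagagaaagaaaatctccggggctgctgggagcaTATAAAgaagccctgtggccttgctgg
*Cxcr2*, chr1:74153744-74153993: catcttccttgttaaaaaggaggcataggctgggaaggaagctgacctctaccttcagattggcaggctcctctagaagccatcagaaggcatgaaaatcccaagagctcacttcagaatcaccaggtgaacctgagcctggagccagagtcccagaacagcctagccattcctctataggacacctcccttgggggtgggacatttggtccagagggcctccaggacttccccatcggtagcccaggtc

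The NF-κB motif matched the plus strand of *Cxcl1* from 71 bases before the start and, overlapping it, the minus strand from 70 bases before the start, and 7.25% of the 32851 promoter windows of this length held it on either strand. The TATA motif began 27 bases before the start of *Cxcl15* and was held by 12.4% of the windows. Neither motif occurred in the *Cxcr2* window. These matches describe the sequence only.

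The genes whose Ct ran most parallel to each of the 5 were taken as those with the smallest SD, over the 4 arrays, of their Ct difference from it. For *Cxcl1* these were the monocyte chemoattractants *Ccl7* (SD 0.219 cycles) and *Ccl2* (SD 0.359 cycles), against a median of 1.29 cycles over the panel. For *Cxcl5* they were the CC chemokine *Ccl9* (SD 0.0932 cycles) and *Aimp1* (SD 0.180 cycles), a protein of the tRNA synthetase complex that also acts as a cytokine, against a median of 1.19 cycles. For *Cxcl15* they were the CC chemokine *Ccl6* (SD 0.526 cycles) and *Cxcl1* (SD 0.812 cycles), against 1.90 cycles. *Cxcl15* was the only member of the 5 whose nearest genes included another of them.

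For *Cxcr2* the most parallel genes were *Ccl5* (SD 0.457 cycles), a chemokine of T cells and other leukocytes, and *Ccl12* (SD 0.488 cycles), a ligand of the monocyte receptor CCR2, against a median of 1.66 cycles. *Ccl5* had a log2 change of 2.04 (SE 1.02, adjusted p = 0.366 by limma). For *Csf3* they were *Tnfsf13b* (SD 0.249 cycles), the B cell survival factor BAFF, and *Il4* (SD 0.306 cycles), against 1.11 cycles. These SDs rest on 4 arrays of 2 RNA pools and are given as a description.

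Most readings of the 5 genes came at late cycles. Of the 20 wells of the 5 genes, 12 had a Ct of 35 or later, and the mean Ct over the 4 arrays was 35 or later for 3 of the 5 genes, *Cxcl1*, *Cxcl5* and *Csf3*, against 16.9% of the 77. The Ct of *Cxcr2* was 32.3 and 32.6 on the E-selectin arrays and 36.6 and 33.2 on the LacZ arrays. That of *Csf3*, the latest of the 5, was 35.9 and 35.3 with E-selectin and 37.4 and 36.1 with LacZ. The chemokines ranged from 31.3 for *Cxcl15* on LacZ replicate 2 to 37.2 for *Cxcl1* on LacZ replicate 1.

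The array also carries a genomic DNA control well, which amplifies a stretch of DNA that is not transcribed. It crossed the threshold between cycles 36.1 and 39.3. On LacZ replicate 1, *Cxcl1* and *Csf3* crossed the threshold after that well, by 0.33 and 0.50 cycles, and *Cxcl5*, *Cxcl15* and *Cxcr2* only 0.68, 0.35 and 0.30 cycles before it. On LacZ replicate 2 all 5 genes preceded it, by 3.19 cycles for *Csf3* to 8.07 cycles for *Cxcl15*. On the E-selectin arrays *Cxcr2* preceded the control well by 5.01 and 3.55 cycles, and the other 4 genes by 0.80 to 2.24 cycles. The part of genomic DNA in these readings was not tested.

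**Figure D4:**
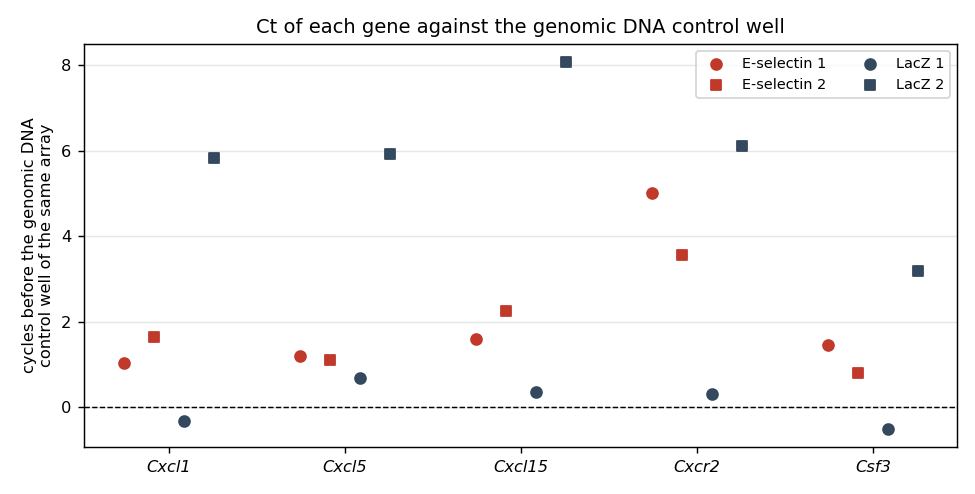
Cycles by which each gene crossed its threshold before the genomic DNA control well of the same array, for E-selectin (red) and LacZ (dark blue), with circles for replicate 1 and squares for replicate 2. On LacZ replicate 1 all 5 genes lie within 0.68 cycles before and 0.50 cycles after the control well, and on LacZ replicate 2 they lie 3.19 to 8.07 cycles before it.

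The 2 LacZ arrays differed more than the 2 E-selectin arrays for 4 of the 5 genes, and also in the median over the panel. The gap in ΔCt between the LacZ arrays was 4.03 cycles for *Cxcl15*, the widest of the 77 genes tested, 2.48 for *Cxcl1*, 2.11 for *Cxcr2* and 1.55 for *Cxcl5*. For *Csf3* it was 0.004 cycles, the narrowest of the 77. The panel median was 1.12 cycles for LacZ and 0.756 for E-selectin, where the gaps of the 5 genes ran from 0.054 to 1.35. In raw Ct, LacZ replicate 1 lagged replicate 2 by 5.25 cycles for *Cxcl15*, 3.70 for *Cxcl1*, 3.33 for *Cxcr2*, 2.77 for *Cxcl5* and 1.22 for *Csf3*, beside a median of 2.19 over the panel and 1.22 for the mean of the reference genes. The reverse transcription control wells averaged a Ct of 24.7 on LacZ replicate 2 and 23.1 to 23.6 on the other arrays.

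**Figure D5:**
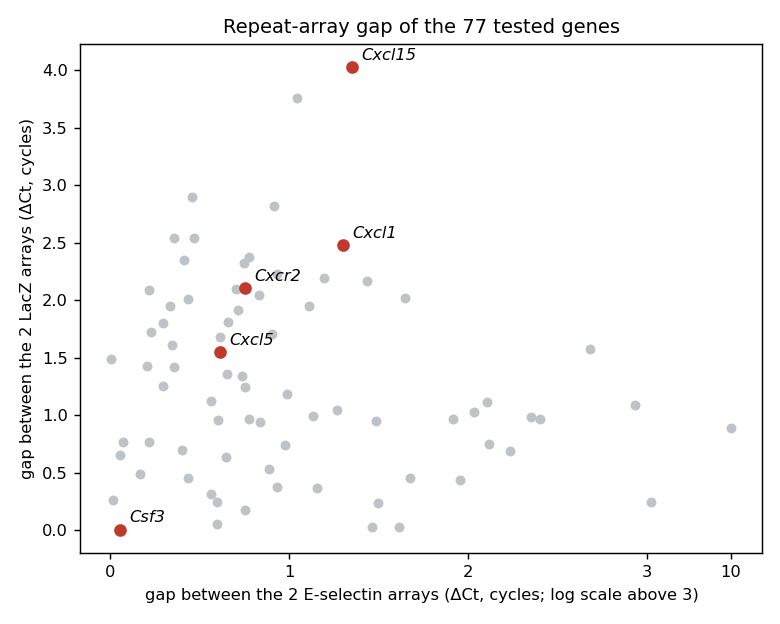
Gap in ΔCt between the 2 arrays of each pool for the 77 genes tested, with E-selectin on the x axis (log scale above 3 cycles) and LacZ on the y axis, the 5 genes in red and the others in grey. *Cxcl15* has the widest LacZ gap, at 4.03 cycles, and *Csf3* the narrowest, at 0.004 cycles.

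Among the panel's inducers of ELR chemokines and of *Csf3*, 8 of 9 had a Ct on all arrays. Of these, 0 of 8 were called in either direction, against 5.19% of the 77 genes tested. Their median log2 change was 0.55, with 5 of 8 above zero, beside a median of -0.19 and 36 above zero over the 77. *Il1a*, an alarm cytokine released from damaged cells, had the highest at 1.74 (SE 0.95, adjusted p = 0.396 by limma), with Ct values of 33.3 and 32.7 for E-selectin and 36.3 and 34.3 for LacZ. *Il1b* had a log2 change of 0.17 (SE 0.96, adjusted p = 0.899 by limma), and *Il17f*, a T cell cytokine that acts on stromal cells, had the lowest of the list at -0.68 (SE 0.95, adjusted p = 0.716 by limma). *Il17a* gave no Ct on LacZ replicate 1 and was not tested.

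The interleukin 1 receptor *Il1r1* and the antagonist *Il1rn* had log2 changes of -0.29 (SE 0.99, adjusted p = 0.873 by limma) and -1.17 (SE 0.96, adjusted p = 0.507 by limma). Of *Ccr1*, a second chemokine receptor found on mouse neutrophils and on monocytes, and the 5 CC chemokines listed with it, 0 of 6 were called. The share called over the 77 was 5.19%. Above zero was 1 of 6, against 36 of the 77, and the median log2 change was -1.27. *Ccl3* had the lowest value of that list, at -2.51 (SE 1.00, adjusted p = 0.239 by limma).

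The CXC chemokines without the ELR motif, which are *Pf4* and 5 others that draw lymphocytes or stem cells, had a median log2 change of 0.17 over 6 genes, with 3 above zero. The only call among them was that of *Cxcl13*, the B cell chemokine, which was higher with E-selectin, and among the other CXC receptors that of its receptor *Cxcr5*, also higher. The third CXC receptor on the panel, *Cxcr3* of T cells, had a log2 change of 0.75 (SE 0.99, adjusted p = 0.716 by limma) and its arrays overlapped.

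*Cxcr2* was the only neutrophil marker fixed for this panel, and genes that define neutrophils or skeletal muscle more narrowly were not analysed here, so the cell source of the 5 transcripts was not determined. In bulk muscle RNA, fewer cells of a type and less RNA per cell cannot be told apart. Markers of other leukocytes are given beside it. Of the T and NK lymphocyte markers, 5 of 6 were tested. All 5 were above zero, against 36 of the 77, with a median log2 change of 1.38 and 0 of them called. The summed level of the 5 is the sum of 2 to the power of -ΔCt. It was 0.0113 to 0.0143 on the E-selectin arrays and 0.00379 to 0.00991 on the LacZ arrays. Its largest part came from *Cxcr3*, whose arrays overlapped. All 4 B lymphocyte and lymphoid tissue markers lay higher without overlap and 3 of 4 were called, against 22.1% and 5.19% of the 77. These 3 are among the 4 genes called over the panel. The lists were chosen with earlier results of these data known, so the counts only describe them. The summed level was 0.380 to 0.500 with E-selectin, its largest part from *Cxcl13* (ΔCt 2.10 and 1.33), and 0.0149 to 0.0288 with LacZ.

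The 6 monocyte and macrophage markers had values below zero in 6 of 6 genes, with 0 called and a median log2 change of -1.25. Over the 77 genes tested, 41 were below zero and 5.19% were called. Their summed level was 0.320 to 0.570 with E-selectin and 0.468 to 2.69 with LacZ. Such a sum mostly follows its most abundant gene, here *Ccl6*, which had a ΔCt of -1.32 on LacZ replicate 2. Of the eosinophil markers, *Ccr3* had a log2 change of -1.61 (SE 1.06, adjusted p = 0.507 by limma) and *Il5ra* of 0.37 (SE 1.02, adjusted p = 0.847 by limma). Their summed level, which mostly follows *Ccr3*, was 0.00549 to 0.0123 with E-selectin and 0.0116 to 0.0528 with LacZ. The only marker well in these lists without a Ct was that of *Ccr8* on LacZ replicate 1. The part of other leukocytes in the readings of the 5 genes was not tested.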

How the data were processed

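The authors deposited threshold cycles (Ct), a score per well that is not normalized, for 4 Qiagen RT2 Profiler arrays read by SYBR Green RT-qPCR. The labels describe an RNeasy kit with DNase I treatment and the study's methods TRIzol, and baseline and threshold settings were not stated. By name the labels give an angiogenesis panel, whereas the series text gives the same catalogue number as the panel of inflammatory cytokines and receptors, and the deposited symbols are mostly those of cytokines, chemokines and their receptors. A second deposited table holds the authors' own ratios, which were not used, and the gene symbols, which were joined by well. Each Ct was normalized to the mean of the 5 reference genes named in the study's methods, and the pools were compared on -ΔCt by a two-sided moderated test (limma 3.58.1, R 4.3.3), with Benjamini-Hochberg adjustment over the 77 of 84 targets read on every array. All Ct values were used as deposited, at full PCR efficiency. The 5 genes and all lists were chosen with earlier results of these data known. Named genes were the 5, the listed pathway and marker genes, and for each of the 5 the 2 most parallel genes. The script was tested on simulated data. Other settings were other reference genes, late or empty wells, omission of each array, a replicate block, a variance trend and the ratio of mean levels, and *Actb*, *Gusb* or *Hsp90ab1* as the only reference was added after the values were seen. Reference genes averaged a Ct of 23.8 to 25.2 per array, the latest on LacZ replicate 1. Target wells with a Ct under 35 numbered 65 and 64 on E-selectin replicates 1 and 2, and 46 and 65 on LacZ replicates 1 and 2. In the same order, 2, 2, 6 and 1 target wells gave no Ct. Plots used matplotlib 3.10.9 (Python 3.11.15).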

Additional observations from a re-analysis of the deposited data

How the results depend on the processing

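At an adjusted p-value under 0.05, 0 of the 5 genes were called in limma in every setting that tested them, and at most 2 had an unadjusted p-value under 0.05, with *B2m* as the only reference. *Cxcr2* and *Cxcl5* kept their direction in the 15 settings that could change it. The other 3, a replicate block, a variance trend and empty wells at 40, leave the log2 change of a gene read on all arrays as it is. *Cxcl1* turned to 0.52 with *Gapdh* and to 0.03 with *Gusb* as the only reference, and ranged from -1.84 to 0.64 with 1 array left out. *Cxcl15* ranged from -3.49 to 0.54 with 1 array left out. *Csf3* turned to -0.85 with *B2m* as the only reference. With late wells set to 35 it was -0.55, but all 4 of its wells then hold that limit and the value is the difference of the reference genes alone. The number of the 5 genes whose arrays did not overlap was 3 in the setting reported, 3 to 5 with 1 array left out, where 68.8% to 80.5% of the 77 did not overlap, and 2 to 4 with other references or late wells at 35, where 31.2% to 68.8% did not. With late wells at 35, 12 of the 20 wells of the 5 genes hold that limit, so part of its count rests on the reference genes alone. Over the panel, 4 genes were called in the setting reported and 7 with *Gapdh* or *Gusb* as the only reference, 0 with *B2m* alone, where 26 had an unadjusted p-value under 0.05, and 0 to 6 with 1 array left out. The cause of these shifts was not tested. When every array had to read below 35, 42 genes remained, none of them among the 5. The replicate numbers come with no stated batch, and with the replicate number as a block 0 of the 5 and 5 of the 77 genes were called. Across genes, deviations of same-numbered arrays correlated at r = 0.332. Precision is limited by 2 arrays per pool. Genes were also split by a mean Ct under 30, of 30 to 35, and of 35 or later. In that order, the median gap between the LacZ arrays was 1.02, 1.12 and 1.42 cycles of ΔCt. Between the E-selectin arrays it was 0.875, 0.765 and 0.614 cycles. The part of late cycles in these gaps was not tested.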

Other observations

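*Csf2*, granulocyte-macrophage colony-stimulating factor, which stood in the list of inducers, read at cycles 29.3 and 38.9 on E-selectin replicates 1 and 2 and at cycles 35.9 and 35.6 on LacZ replicates 1 and 2. The gap in ΔCt between its 2 E-selectin arrays was 10.1 cycles, the widest of the 77 genes tested. Its log2 change was 1.13 (SE 2.17, adjusted p = 0.799 by limma).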
